A study of Mus musculus with 6 samples.

Results

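The regulator of G protein signalling (RGS) genes described here are 8 members of the family, measured in natural killer (NK) cells from mouse spleen: Rgs1, Rgs2, Rgs3, Rgs10, Rgs14, Rgs16, Rgs18 and Rgs19. They were taken from the deposited table by an exact match of the gene symbol, which found 1 row for each of the 8 symbols among 27763 gene rows. Sequencing of poly(A) RNA covered 2 groups, DN NK and cNK, with 3 libraries each. The donors of both groups were C57BL/6 mice, wild type and 6 weeks old, with no treatment named. Neither short name is written out in the labels, and no sort marker is given, so a gene used for sorting cannot be told from an outcome. Nothing ties the libraries to separate animals. The p-values therefore describe the spread among libraries, which may be technical. By its title, the study concerns immature NK cells resident in the spleen whose maturation depends on T-bet.

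RGS proteins switch off signals from G protein-coupled receptors. They bind the GTP-loaded alpha subunit of a heterotrimeric G protein and speed up its hydrolysis of GTP, so that the alpha subunit returns to its resting state and captures the beta and gamma subunits again. Chemokine and sphingosine-1-phosphate receptors of lymphocytes signal mainly through alpha subunits of the inhibitory (Gi) class, and RGS proteins are known for limiting how long lymphocytes respond to such attractants. The family is grouped by sequence. Rgs1, Rgs2, Rgs3, Rgs16 and Rgs18 belong to its R4 subfamily, which are mostly compact proteins with little beyond the RGS domain, while Rgs10 and Rgs14 belong to the R12 subfamily and Rgs19 to the RZ subfamily.

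In DN NK, Rgs1 and Rgs18 were higher than in cNK, Rgs14, Rgs16 and Rgs19 were lower, and Rgs2, Rgs3 and Rgs10 did not pass the test. Sizes ranged from a 1.99-fold rise of Rgs18 to a 1.65-fold fall of Rgs19. The most abundant members, Rgs2 and Rgs1, averaged 125 and 99.4 FPKM in DN NK and 127 and 86.4 FPKM in cNK. FPKM counts fragments per kilobase of transcript, scaled for library depth, so it allows levels to be compared between genes. Log2 fold changes with their adjusted p were taken from edgeR's quasi-likelihood test on the deposited estimated counts, as DN NK over cNK, with Benjamini-Hochberg adjustment over the 11690 rows tested and a threshold of 0.05. All 8 members passed the filter on low values, which asked for 1 FPKM or more in 3 or more libraries. Of all tested rows 61.7% were called, 30.8% higher and 30.9% lower in DN NK, so 5 called members of 8 is a share near that of the table. The size of change had a median of 0.30 on the log2 scale over the members against 0.37 over all tested rows. The median log2 fold change was -0.10 over the members and -0.02 over all tested rows. In 6 members the FPKM ranges of the groups did not overlap, which held for 70.3% of tested rows.

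**Figure D1:**
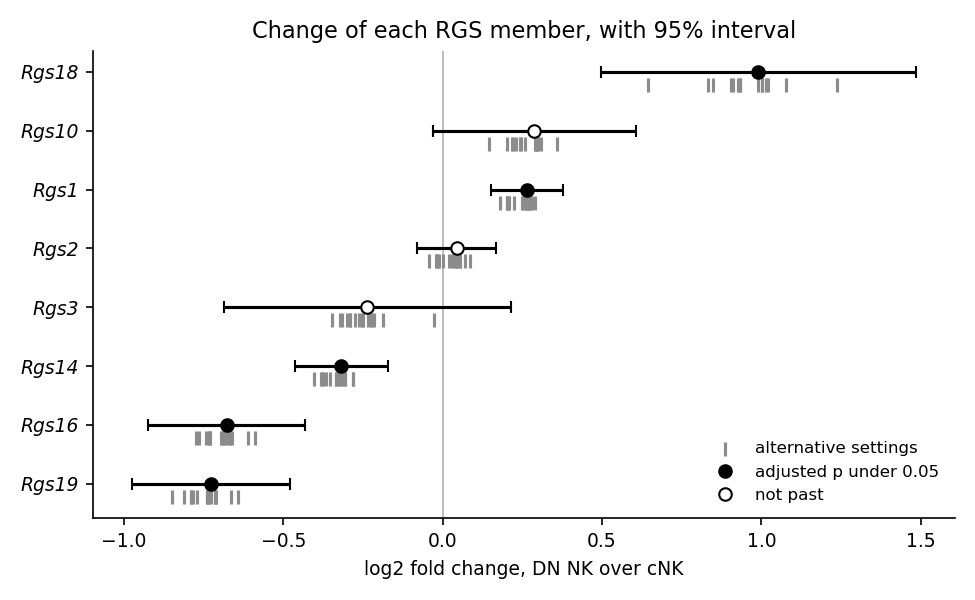
Log2 fold change of each RGS member, DN NK over cNK, from edgeR (circles, 95% intervals as bars); filled circles passed an adjusted p of 0.05 and grey ticks are the values under the alternative settings. Rgs18 and Rgs1 lie above 0 and Rgs14, Rgs16 and Rgs19 below it under every setting that tested them, while the ticks of Rgs2 fall on both sides of 0.

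The libraries held 79798234 to 89526647 estimated counts, and the NK genes Ncr1, Klrb1c, Eomes, Tbx21 and Il2rb were well expressed in all 6. Of 9 listed NK lineage markers, 8 were lower in DN NK and none higher, where 30.9% of all tested rows were lower. Their summed level was 2478 to 2814 FPKM in DN NK against 4362 to 4500 FPKM in cNK. Markers of other lymphocytes moved with the groups as well. The summed level of 10 B cell markers was 28.7 to 43.3 FPKM in DN NK against 0.976 to 1.39 FPKM in cNK. All 6 B cell markers tested passed the filter only through DN NK, so their direction was fixed by it. In the fit without a filter 10 of 10 were higher. That fit called 31.3% of 27763 rows in either direction, 4245 of them higher. The summed level of 10 T cell markers was 68.5 to 69.8 FPKM in DN NK against 12.1 to 14.4 FPKM in cNK. Most of the DN NK sum was Cd3d, at a mean of 38.5 FPKM, and Cd3g, at 17.3 FPKM, while Cd3e was at 0.846 FPKM. Without a filter 8 of 10 were higher, and Cd8b1 and Themis did not pass. Of 9 listed markers of type 2 and type 3 innate lymphoid cells, 4 were higher without a filter and 1, Klrg1, was lower. In bulk RNA, fewer cells of a type and less RNA per cell cannot be told apart.

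Rgs1 limits chemokine-directed movement of B and T cells. Its level was 99.37, 98.97 and 99.97 FPKM in DN NK replicates 1, 2 and 3, against 80.3, 90.1 and 88.8 FPKM in cNK replicates 1, 2 and 3. All 3 DN NK libraries lay above all 3 cNK libraries, and the DN NK values were nearly equal. The difference was small beside the level, a 1.20-fold rise (95% interval 1.11 to 1.30), or 0.26 on the log2 scale (SE 0.05, adjusted p = 0.00177). The ratio of mean FPKM was 1.15. The FPKM values carry the authors' depth scaling, while the fit uses TMM factors computed on the rows that passed the filter. Without the filter, the log2 value was 0.20. Rgs1 is also used by B and T cells, whose markers were also higher in DN NK, and their part in the result was not tested.

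Rgs18 is best known from platelets and megakaryocytes, where it restrains activation through G protein-coupled receptors. Its level was low, at 2.60, 3.59 and 2.95 FPKM in DN NK, against 1.21, 2.12 and 1.48 FPKM in cNK. The groups did not overlap, although the gap between the lowest DN NK and the highest cNK library was narrower than the range within each group. It had the largest rise among the members, at 0.99 on the log2 scale (SE 0.21, adjusted p = 0.00391), with a 95% interval of 1.41-fold to 2.80-fold. These values rest on about 133 to 182 read pairs per library in DN NK and 68 to 114 in cNK, the fewest of any called member. Of 5 listed platelet and megakaryocyte markers, none was called in the fit without a filter, which called 31.3% of 27763 rows. Pf4 was at 0 in every library but DN NK replicate 3, at 0.03 FPKM. Itga2b was at 0.238 to 0.346 FPKM in DN NK against 0.136 to 0.231 FPKM in cNK. Its groups did not overlap, but it did not pass in that fit (adjusted p = 0.120). Ppbp, Gp1ba and Gp1bb had lower means in DN NK than in cNK. The summed level of the 5 markers was 0.927 to 2.02 FPKM in DN NK against 1.66 to 2.69 FPKM in cNK. The part of the B cell, T cell and platelet markers in the Rgs18 result was not tested.

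Rgs2, which acts with preference on alpha subunits of the Gq class, was the most abundant member in both groups. It stood at 129.6, 126.6 and 119.2 FPKM in DN NK, against 120.6, 132.5 and 127.1 FPKM in cNK. The libraries of the groups were interleaved. The log2 estimate was 0.04 (SE 0.05, adjusted p = 0.509), and the 95% interval ran from 0.945-fold to 1.12-fold, so changes beyond that range lay outside the interval. The sign of this small value turned to negative under 5 of 16 alternatives. In all tested rows, only 3.29% had a higher mean FPKM than Rgs2 and 4.29% a higher one than Rgs1.

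Rgs3 acts on alpha subunits of both the Gi and Gq classes and is made in long and short forms from several start sites. Its level was 15.3, 17.1 and 18.3 FPKM in DN NK, against 17.2, 18.6 and 26.5 FPKM in cNK. The ranges overlapped, and cNK replicate 3 stood above the other 5 libraries. On the log2 scale Rgs3 lay at -0.24 (SE 0.18, adjusted p = 0.295), with a 95% interval of 0.622-fold to 1.16-fold. Without cNK replicate 3 it was -0.03 (adjusted p = 0.785). An antisense gene, Gm11209, lies inside Rgs3 and was at 2.29 ± 0.423 FPKM in DN NK and 0.294 ± 0.120 FPKM in cNK (SD, n = 3 each), a log2 difference of 2.97 (SE 0.36, adjusted p = 0.000147). The library kit does not mark strand, so reads of Rgs3 and Gm11209 within their shared span cannot be told apart. The table lists 16 transcripts for Rgs3 but gives 1 value for the gene, so long and short forms were not separated here.

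Rgs16 acts on alpha subunits of the Gi and Gq classes and is known for restraining chemokine responses of activated lymphocytes. Its level was 6.35, 7.08 and 5.58 FPKM in DN NK, against 11.4, 10.5 and 9.89 FPKM in cNK. Every DN NK library was below every cNK library. The gene was 1.60-fold lower in DN NK, or -0.68 on the log2 scale (SE 0.11, adjusted p = 0.000712). The antisense gene Gm28513 overlaps the end of Rgs16 and was at most 0.341 FPKM in any library.

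Rgs14 belongs to the members with more than an RGS domain. It also binds GTP-loaded Ras-family proteins and holds a GoLoco motif, which binds Gi alpha subunits in their GDP form. It was at 11.4, 10.9 and 12.5 FPKM in DN NK, against 14.5, 16.0 and 14.8 FPKM in cNK. No DN NK library reached the lowest cNK library. The fall was 1.25-fold, or -0.32 on the log2 scale (SE 0.06, adjusted p = 0.00246). Rgs10, the small relative of Rgs14 that acts on Gi alpha subunits, did not pass the test. It was at 1.97, 1.82 and 1.91 FPKM in DN NK, against 1.51, 1.57 and 1.79 FPKM in cNK. The groups did not overlap, by a narrow margin, and about 71 to 86 read pairs per library stood behind the values. The log2 estimate was 0.29 (SE 0.14, adjusted p = 0.104), with an interval of 0.978-fold to 1.52-fold.

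Rgs19, first found as a partner of the alpha subunit encoded by Gnai3, fell most. Its level was 9.23, 11.2 and 8.59 FPKM in DN NK, against 15.4, 18.3 and 16.5 FPKM in cNK. The highest DN NK library was well below the lowest cNK library. That is 1.65-fold lower, or -0.73 on the log2 scale (SE 0.11, adjusted p = 0.000484), and 22.9% of tested rows had a larger change. Together Rgs14, Rgs16 and Rgs19 summed to 27.6 ± 1.33 FPKM in DN NK and 42.4 ± 2.02 FPKM in cNK (SD, n = 3 each). The summed level of NK lineage markers was lower in the same DN NK libraries, and its part in these falls was not tested. Gnai3 itself was at 70.6 ± 0.319 FPKM in DN NK and 72.3 ± 1.47 FPKM in cNK (SD, n = 3 each) and did not pass (log2 fold change 0.03, adjusted p = 0.587).

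**Figure D2:**
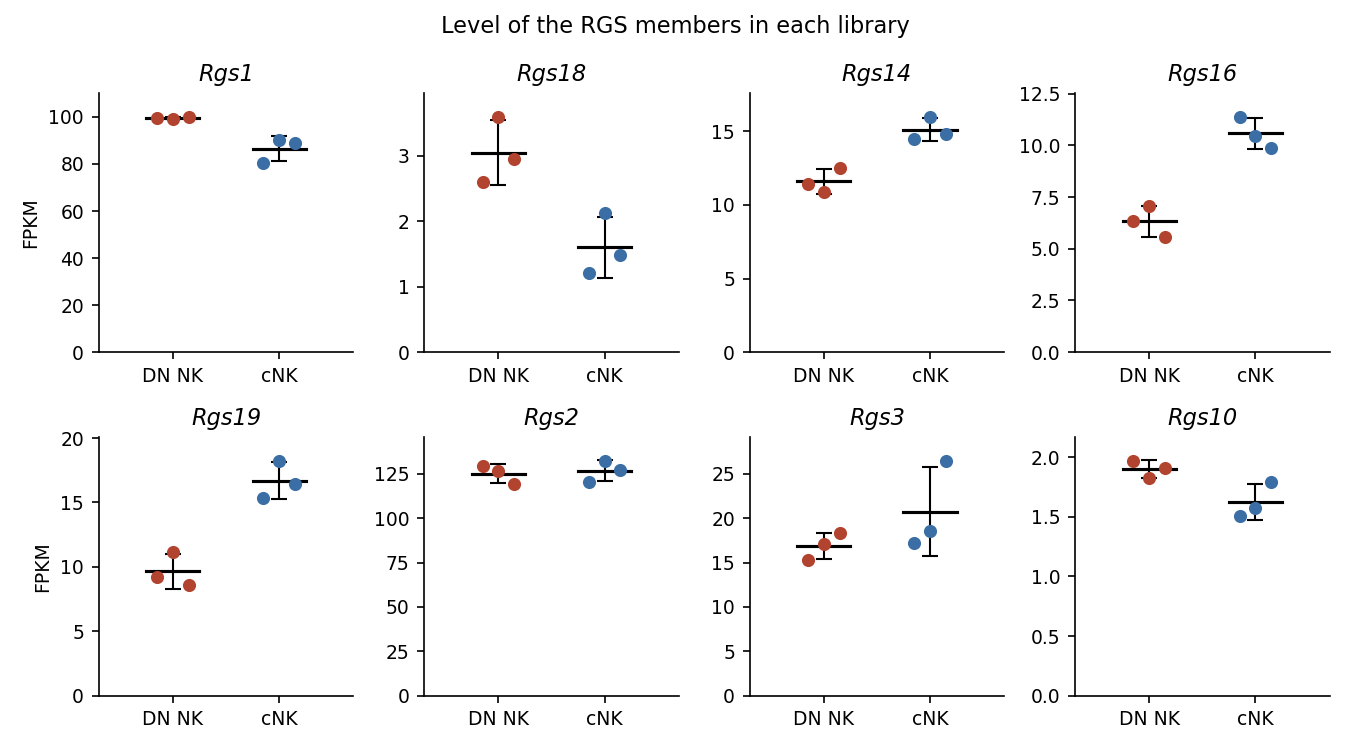
FPKM of each RGS member in the 3 DN NK libraries (left in each panel) and the 3 cNK libraries (right), with the mean and SD; each panel has its own scale from 0. Rgs1 and Rgs18 sit higher and Rgs14, Rgs16 and Rgs19 lower in DN NK without overlap, Rgs2 is interleaved near 125 FPKM, and 1 cNK library of Rgs3 stands apart at 26.5 FPKM.

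The promoter window of Rgs16, the first of 3 listed for Rgs19 and that of Rgs2 are shown, for the members with the largest falls and for the abundant member that did not pass, to set the sequences beside those levels. Each runs from 250 bases before to 50 bases after the annotated start, 5' to 3' on the gene's strand, from RefSeq on GRCm38.p6. Capitals mark matches, on either strand, to a CCAAT box (CCAAT), a GC box (GGGCGG) or a cAMP response element half-site (TGACG).
Rgs16, chr1:153740103-153740402, plus strand: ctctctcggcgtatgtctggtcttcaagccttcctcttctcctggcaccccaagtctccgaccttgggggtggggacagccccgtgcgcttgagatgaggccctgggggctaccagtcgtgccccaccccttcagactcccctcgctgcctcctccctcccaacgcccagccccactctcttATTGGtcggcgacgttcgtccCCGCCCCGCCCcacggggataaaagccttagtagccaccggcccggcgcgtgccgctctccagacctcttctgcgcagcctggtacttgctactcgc
Rgs19, chr2:181693928-181694227, minus strand: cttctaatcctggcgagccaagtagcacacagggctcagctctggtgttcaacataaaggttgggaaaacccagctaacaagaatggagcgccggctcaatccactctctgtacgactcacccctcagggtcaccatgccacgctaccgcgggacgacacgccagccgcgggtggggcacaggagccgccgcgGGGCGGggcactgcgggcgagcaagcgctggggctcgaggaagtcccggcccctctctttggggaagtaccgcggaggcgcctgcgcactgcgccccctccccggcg
Rgs2, chr1:144004100-144004399, minus strand: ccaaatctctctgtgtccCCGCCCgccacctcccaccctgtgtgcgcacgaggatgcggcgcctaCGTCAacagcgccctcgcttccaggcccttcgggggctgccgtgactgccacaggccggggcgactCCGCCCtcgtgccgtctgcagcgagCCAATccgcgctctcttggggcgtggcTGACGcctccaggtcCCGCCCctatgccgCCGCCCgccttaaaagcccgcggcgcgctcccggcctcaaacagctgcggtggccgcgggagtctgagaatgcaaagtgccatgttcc

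All 3 windows are rich in G and C, at 66.0% for Rgs16, 66.7% for the first Rgs19 window and 70.0% for Rgs2, against a median of 52.7% over 32851 promoter windows. The Rgs16 window holds 1 CCAAT box and 2 GC boxes, which share a base. The first Rgs19 window holds 1 GC box. Of the other Rgs19 windows, the second holds 2 GC boxes at 72.7% G and C. It overlaps the first, and 1 of its GC boxes is the box of the first window. The third holds none at 53.3%, near the median of all windows. The Rgs2 window holds 4 GC boxes, 1 CCAAT box and 2 cAMP response element half-sites. Of all windows, 35.7% hold a GC box, 37.4% a CCAAT box and 20.8% the half-site. Windows were listed for 5 of the members, 8 windows in all, with more than 1 start site for Rgs3 and Rgs19. A TATA box (TATAAA, in 13.6% of all windows) was found in 2 of the 8, both of Rgs3. An AP-1 site (TGANTCA, in 7.81% of all windows) and a T-box half-site (AGGTGTGA, in 1.28%) were found in none of the 8. A match is a description of the letters, and no match says only that they are not in these windows.

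On GRCm38, 3 of the members lie on the minus strand of one stretch of chromosome 1. Rgs2 spans 143999338 to 144004161, Rgs1 144242296 to 144249242 and Rgs18 144752683 to 144775435. Between Rgs2 and Rgs1 lie 238 kb and between Rgs1 and Rgs18 503 kb. These neighbours differed widely in level, from Rgs2 at 125 ± 5.33 FPKM in DN NK and 127 ± 5.94 FPKM in cNK to Rgs18 at 3.05 ± 0.502 FPKM in DN NK and 1.60 ± 0.469 FPKM in cNK (SD, n = 3 each). Rgs13, a gene of germinal centre B cells that lies between Rgs2 and Rgs1, was at 0.0491 FPKM in DN NK replicate 2 and at 0 in the other 5 libraries. The nearest listed protein-coding gene before Rgs2, Uchl5, which encodes a deubiquitinase, was 1.33-fold lower in DN NK (adjusted p = 0.00150). Rgs16 lies farther along chromosome 1, from 153740349 to 153745468 on the plus strand, beside Rgs8, which reached no more than 0.00420 FPKM. The other members are on chromosomes 2 (Rgs19, 181688419 to 181693977, minus), 4 (Rgs3, 62559847 to 62704001, plus), 7 (Rgs10, 128373621 to 128418758, minus) and 13 (Rgs14, 55369732 to 55384687, plus). All 8 spans equal those of the GENCODE M21 annotation.

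The members' order by level was much alike at the top and differed below. In DN NK it ran Rgs2, Rgs1, Rgs3, Rgs14, Rgs19, Rgs16, Rgs18, Rgs10, and only Rgs14 and Rgs19 had overlapping ranges as neighbours. In cNK it ran Rgs2, Rgs1, Rgs3, Rgs19, Rgs14, Rgs16, Rgs10, Rgs18, and the ranges overlapped for Rgs3 with Rgs19, Rgs19 with Rgs14 and Rgs10 with Rgs18. The summed level of the 8 members was 274 ± 4.36 FPKM in DN NK and 279 ± 15.2 FPKM in cNK (SD, n = 3 each), with overlapping ranges. Rgs1 and Rgs2 together made up 81.4 to 83.0% of it in DN NK and 75.3 to 76.9% in cNK. The share of Rgs1 was 36.3 ± 0.763% in DN NK and 30.9 ± 0.240% in cNK, while that of Rgs2 was 45.7 ± 1.33% in DN NK and 45.4 ± 0.926% in cNK (SD, n = 3 each). Rgs1 stood at 0.767 to 0.839 of the Rgs2 level in DN NK and at 0.666 to 0.698 in cNK. Rgs16 stood at 1.89 to 2.44 times the Rgs18 level in DN NK and at 4.94 to 9.42 times in cNK.

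**Figure D3:**
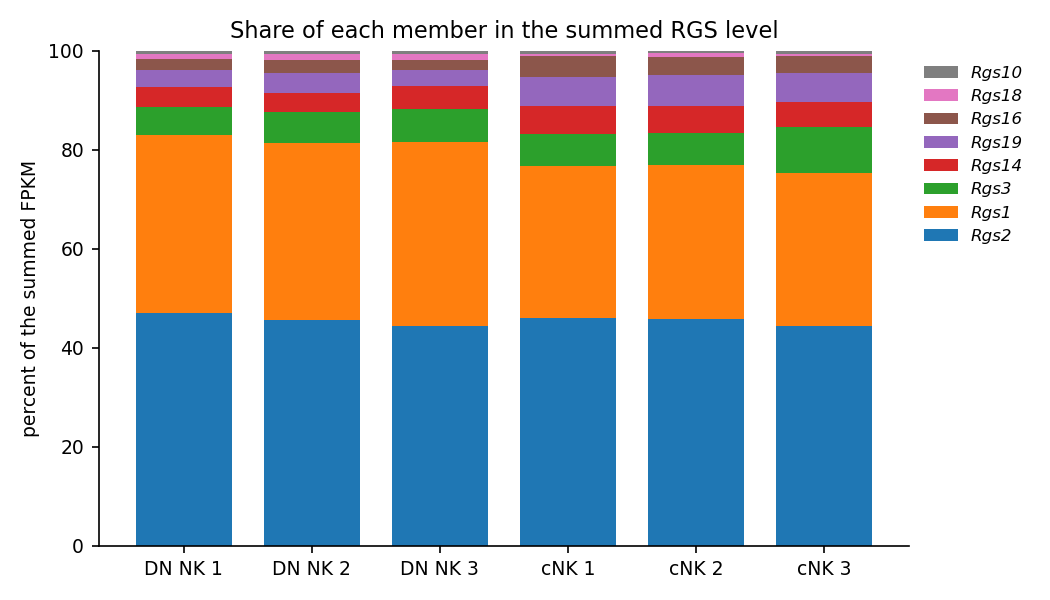
Share of each member in the summed FPKM of the 8 RGS members, by library, in percent. Rgs2 and Rgs1 fill 81.4 to 83.0% of each DN NK bar and 75.3 to 76.9% of each cNK bar.

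Most of the remaining RGS family was near 0. Of 14 further family genes, 11 were listed, and 1, Rgs12, passed the filter. Rgs12, the large relative of Rgs14 with the same Ras-binding and GoLoco parts, was at 1.65, 1.57 and 1.58 FPKM in DN NK, against 1.30, 1.16 and 0.886 FPKM in cNK. The groups did not overlap, and it was higher in DN NK by 0.58 on the log2 scale (SE 0.14, adjusted p = 0.00730). In the fit without a filter, which called 31.3% of 27763 rows, Rgs9 was also higher at 0.178 ± 0.0211 FPKM in DN NK and 0.0667 ± 0.0457 FPKM in cNK (SD, n = 3 each; adjusted p = 0.0236). Rgs11 was at 0.567 ± 0.0390 FPKM in DN NK and 0.451 ± 0.0749 FPKM in cNK and did not pass (adjusted p = 0.243).

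The partners of RGS proteins were counted in lists of G protein signalling genes. Over all 6 lists 22 of 67 tested members were higher, 25 lower and 20 not past, a called share of 70.1% beside 61.7% of all rows. Of 9 tested alpha subunits, 3 were higher, 2 lower and 4 not past, with a median log2 fold change of 0.05. Gnai2, which encodes the main Gi alpha subunit of lymphocytes and a substrate of most members here, was at 76.3 ± 5.59 FPKM in DN NK and 105 ± 2.09 FPKM in cNK and fell by 0.40 on the log2 scale (SE 0.06, adjusted p = 0.000307; SD, n = 3 each). Gna13, which encodes another alpha subunit, was at 117 ± 3.44 FPKM in DN NK and 58.3 ± 5.75 FPKM in cNK, with a log2 fold change of 1.07. Gnal, of the stimulatory class, was higher by 0.45. Of 8 tested beta and gamma subunits, 1 was higher, 4 lower and 3 not past, with a median of -0.16. Gngt2 had a log2 fold change of 1.11, while Gng2 fell by 0.98 and Gnb5 by 0.52. Gnb5 passed the filter through cNK, as only replicate 2 of DN NK reached 1 FPKM. Gnb1, the most abundant, lay at -0.08 and did not pass.

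Among the listed lymphocyte receptors 7 of 17 tested were higher, 8 lower and 2 not past, with a median of -0.29. The list was drawn up as Gi-coupled, but coupling to Gi was not checked for each gene. These counts are therefore not a result about Gi coupling. Gpr55, Gpr34 and the chemokine receptor gene Cxcr6 had log2 fold changes of 6.67, 5.71 and 4.14. They averaged 15.3, 2.77 and 3.07 FPKM in DN NK, against 0.154, 0.0541 and 0.177 FPKM in cNK. These 3 genes passed the filter only through DN NK, and so had to differ. Without a filter, where 31.3% of 27763 rows were called, 8 of the 23 listed receptors were higher and 8 lower. For the counts of tested genes, the share called over all tested rows was 61.7%. P2ry10, the most abundant receptor of the list, fell by 0.41. Of 13 tested receptor kinases, arrestins and G protein modulators, 2 were higher, 3 lower and 8 not past, with a median of -0.06. Gpsm2 and Arrb2, the beta-arrestin 2 gene, fell by 2.31 and 0.51, although Gpsm2 passed the filter only through cNK. Gpsm1, which like Rgs14 holds GoLoco motifs, was higher by 0.70. Grk2, a kinase that desensitises receptors, was at 99.5 ± 3.67 FPKM in DN NK and 99.7 ± 3.47 FPKM in cNK (SD, n = 3 each) and did not pass. Of 19 tested effectors 8 were higher, 8 lower and 3 not past, with a median of 0.05. Pik3r6, a regulatory subunit of the phosphoinositide 3-kinase that beta and gamma subunits activate, was higher by 2.64, at 1.18 FPKM in DN NK and 0.196 FPKM in cNK, and passed the filter only through DN NK. Plcb4 was higher by 1.35, at 2.36 FPKM in DN NK and 0.965 FPKM in cNK. It too passed the filter through DN NK, as only replicate 2 of cNK reached 1 FPKM. Prkacb fell by 0.86, and Prkar1a, the most abundant, was higher by 0.43.

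**Figure D4:**
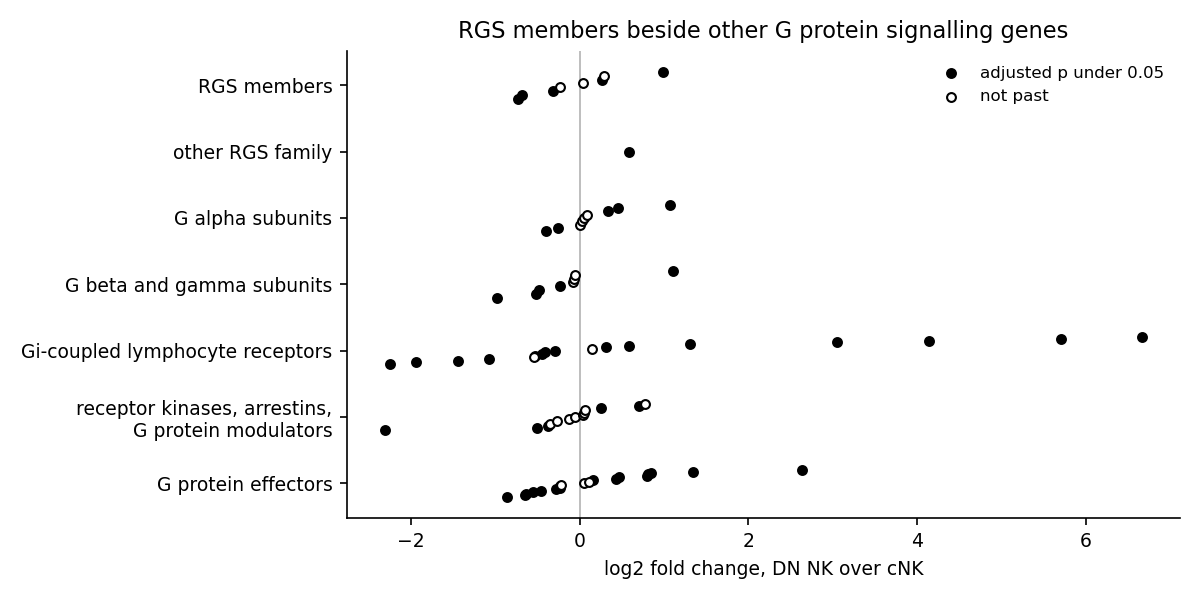
Log2 fold change, DN NK over cNK, of the 8 RGS members and of the tested genes in 6 lists of G protein signalling genes; each circle is a gene, filled where it passed an adjusted p of 0.05, and the offset within a row follows the order of the values. The RGS members lie between -0.73 and 0.99, inside the span of the listed lymphocyte receptors, which runs from -2.24 to 6.67. That list is labelled Gi-coupled, which was not checked for each gene.

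By distance between log2(FPKM + 1) values over the 6 libraries, after removing each gene's mean, the genes with the pattern most like Rgs18 were Tlr12, Tgtp2 and Frg2f1, at distances of 0.211, 0.271 and 0.272. Those most like Rgs19 were Aurkb, Pin4 and Pimreg, at 0.127, 0.131 and 0.163. With 2 groups of 3 libraries, this likeness is mostly a like difference between the groups. Aurkb, a mitotic kinase gene, was at 1.02 ± 0.183 FPKM in DN NK and 2.45 ± 0.251 FPKM in cNK (SD, n = 3 each), and Tlr12, a Toll-like receptor gene, at 2.17 ± 0.172 FPKM in DN NK and 1.03 ± 0.234 FPKM in cNK (SD, n = 3 each).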

How the data were processed

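Per the labels' protocols, spleen NK cell RNA was isolated with Trizol, poly(A) RNA was selected from 5 µg, and TruSeq RNA v2 libraries with inserts near 300 bp were read from both ends (150 bp each) on an Illumina NovaSeq. This kit does not mark strand. Tools listed in the submitters' processing notes are HISAT, StringTie and edgeR, on GRCm38 (mm10), with no versions or settings. Each gene has an FPKM and a count for every library, per the file headers. The deposited counts are estimated counts, not reads: they pile up at 4 and 8, and in rows with 1 listed transcript 90.0 to 91.8% of values up to 30 match, within a tolerance of 0.02 before rounding up, the product of FPKM, transcript length and a library constant. A read pair is worth about 3.74 of them, and read pairs given in the text use that value. They were used as whole numbers.

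The 11690 rows that reached 1 FPKM in 3 or more libraries hold 99.3% of the estimated counts and were tested with edgeR 4.0.16 in R 4.3.3, using TMM factors, robust dispersion and robust quasi-likelihood, group as the only term, 2-sided. The SE is the log2 fold change divided by the square root of F, and the 95% intervals use the t distribution of the same fit. The biological coefficient of variation was 13.5%. The fit was tested on simulated data. Alternatives were other size factors, other filters, DESeq2 1.42.0, limma 3.58.1 on log2(FPKM + 1) and log2(FPKM + 0.1), counts in read pairs, the replicate number as a block, and leaving out each library.

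The members, the gene lists and the motifs were chosen with earlier results of these data known. Named list genes are the 3 largest changes past the threshold and the most abundant tested member of each list, further RGS genes with at least 1 FPKM, coding neighbours in the runs of RGS genes, and the 3 genes nearest in pattern to the largest rise and fall, without gene models and receptor segments. Not every gene this rule names is reported here. Gnai3, Rgs9, Rgs11, overlapping antisense genes and marker genes named singly were added after their values were seen.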

Additional observations from a re-analysis of the deposited data

How the results depend on the processing

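The 5 calls among the RGS members held under each of 16 alternatives that tested them, and Rgs2, Rgs3 and Rgs10 passed under none. The exception in number was a filter on a mean of at least 5 FPKM, which tests fewer rows and removes Rgs18 and Rgs10: 1 member was then higher, and 2278 rows were higher and 2336 lower over the whole table. The log2 fold change of Rgs2 turned negative with upper quartile factors (-0.0415, where the median of all rows was -0.10), without a filter (-0.0208), with edgeR's default filter (-0.0127), and with limma at a pseudocount of 1 (-0.0180) and 0.1 (-0.0182), where no value passed. Ranges over the alternatives were 0.18 to 0.29 for Rgs1, 0.65 to 1.24 for Rgs18, -0.40 to -0.28 for Rgs14, -0.77 to -0.59 for Rgs16 and -0.85 to -0.64 for Rgs19, with adjusted p up to 0.0131, 0.0204, 0.0107, 0.00358 and 0.00432. Leaving out 1 library at a time gave 2 higher and 3 lower members each time, and 3287 to 3561 higher and 3259 to 3483 lower rows over the table.

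Whether the shared replicate numbers pair the libraries was not settled. Deviations of same-numbered libraries correlated at 0.046, 0.036 and 0.162. DN NK replicates 1 and 3 correlated best with the same-numbered cNK library, and DN NK replicate 2 with cNK replicate 1, at 0.056. With the replicate block 2 members were higher and 3 lower, with 3585 rows higher and 3637 lower over the table. The block gave a smaller SE for Rgs18 (0.12 against 0.21) and Rgs3 (0.10 against 0.18). It gave a slightly larger SE for Rgs10 and Rgs14. Rgs10 and Rgs18 rest on the fewest read pairs of the members, and whether the intervals cover differences between mice is unknown.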

Other observations

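The summed level of the 8 RGS members was set against that of Gnai2 and Gnai3, the genes of the Gi alpha subunits found at high level here. The members summed to 1.77 to 1.96 times the level of both alpha subunits in DN NK and to 1.45 to 1.66 times in cNK, without overlap of the groups. The summed member level itself overlapped between the groups, while Gnai2 and Gnai3 summed to 147 FPKM in DN NK and 177 FPKM in cNK. Rgs2, which prefers the Gq class, made up 45.7% of the member sum in DN NK and 45.4% in cNK. Within the alpha subunits, Gnai2 stood at 0.995 to 1.15 times the Gnai3 level in DN NK and at 1.41 to 1.48 times in cNK. These ratios were computed after the values were seen and carry no test.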
